A study of Mus musculus with 34 samples.

Results

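The keratan sulfate synthesis enzymes described here are 8 mouse genes, Chst5, Chst1, Chst2, B3gnt7, B3gnt2, B4galt1, Papss1 and Papss2. The members were set by name, as genes with a probe set carrying that 1 gene symbol, with earlier results of these data known. All 8 were found, with 1 probe set each, among 19938 genes with a probe set of 1 symbol, and all 8 passed the filter on low intensity that left 12998 genes for testing.

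Keratan sulfate is a sulfated chain of alternating galactose and N-acetylglucosamine, attached in the cornea to small leucine-rich proteoglycans such as keratocan and lumican. It binds water and helps to space the collagen fibrils of the stroma, the layer made by the keratocytes, and its sulfation is needed for corneal transparency. The chain is extended in turn by N-acetylglucosaminyltransferases (the B3gnt family) and galactosyltransferases (the B4galt family), sulfated by sulfotransferases (the Chst family), and supplied with activated sulfate, PAPS, by the PAPS synthases Papss1 and Papss2.

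RNA was measured on Affymetrix gene arrays from corneas of wild-type CB6 mice, with no treatment, at 12 ages. These were the embryonic (E) days E14.5, E15.5 and E17.5, the postnatal (P) days P3, P7, P14 and P28 and 2 months, with 3 arrays each, and 6 months, 1 year, 18 months and 2 years, with 2 arrays each. Of the 34 arrays, 32 were of whole cornea, 1 was of epithelium of P28 lifted off with dispase, and 1 was of stroma of P7 taken by laser capture. Whether the arrays of an age stand for different animals is not given in the labels, and p-values therefore speak only of the spread among these arrays, which may be technical, and precision is limited by how few arrays there are.

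Values are the deposited intensities, and differences are on the log2(intensity + 16) scale, which understates the change of dim genes. A gene was called changed in limma at an adjusted p under 0.05, by Benjamini-Hochberg over all 12998 genes, with a log2 difference of at least 1. For the F-test over several ages the highest and lowest age means had to differ by that much. A level on 1 probe set cannot be set against that on another, so genes are compared only through their changes.

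The arrays fell into 2 sets. On 8 probe sets without a single gene symbol, all 18 arrays of E14.5 to P14 read 1501 or more and all 14 arrays of P28 to 2 years read 12.8 or less. In any comparison of an age up to P14 with one from P28 on, age and array set therefore cannot be told apart. The dissected corneas also varied in other tissue: the summed intensity of 16 measured lens genes ran from 2623 to 95730 over the whole-cornea arrays, of 10 skeletal muscle genes from 1991 to 46600, and of 9 retina genes from 711.5 to 24570. The 10 epithelial and 10 keratocyte markers were all measured, and the epithelial sum was lowest at E14.5, where it was 1779 to 7002, beside 25370 or more on every later array.

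Over the 12 ages, 6 of the 8 enzyme genes changed, where 40.6% of all genes tested did. Chst5 spanned 4.37 log2 units between its highest and lowest age means (adjusted p = 4.74e-13 in limma), Papss2 3.02 (adjusted p = 5.02e-11) and Chst2 2.79 (adjusted p = 1.25e-08). B4galt1 spanned 1.78, Papss1 1.48 and B3gnt2 1.46. Chst1 spanned 0.72 and B3gnt7 0.51 and neither was called; Chst1 passed on its adjusted p, 0.000906, but not on size, and B3gnt7 had an adjusted p of 0.0809. The median span of the 8 was 1.63, beside 0.87 for all genes tested.

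**Figure D1:**
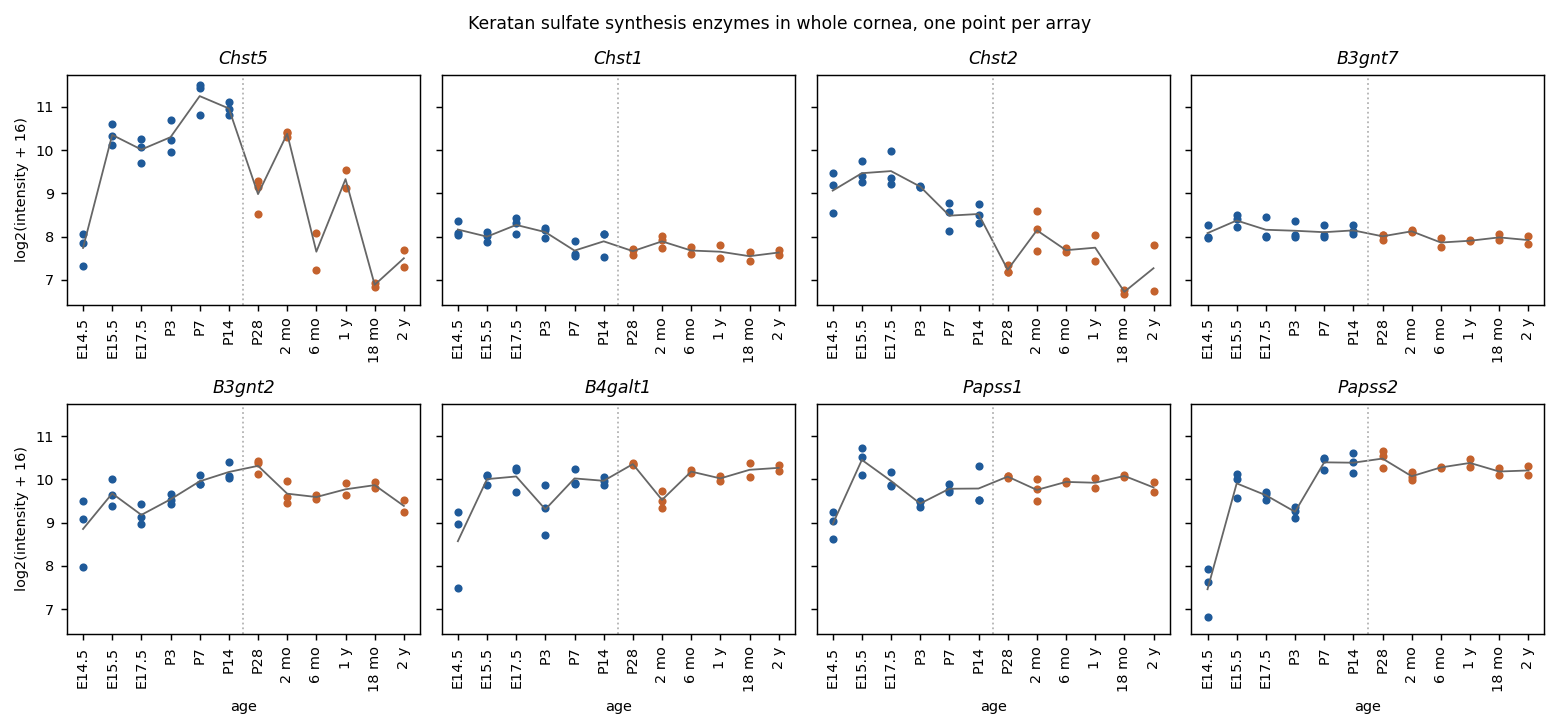
Log2(intensity + 16) of the 8 enzyme genes (vertical axis, the same in all panels) at the 12 ages (horizontal axis, in order but not to scale), with 1 point per whole-cornea array, a line through the age means, blue for arrays of E14.5 to P14, orange for P28 to 2 years, and a dotted line between the array sets. Chst5 rose after E14.5, was highest at P7 and moved up and down by age from P28 on, while Papss2 rose after E14.5 and stayed high. The age means of Chst2 from P28 on lay below the earlier ones, though its arrays of 2 months overlapped those of P7 and P14. Chst1 and B3gnt7 stayed within 1 log2 unit.

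Restricted to E14.5 to P14, within 1 array set, 6 of the 8 genes were called, where 19.6% of all genes were. Papss2 had the 76th largest F statistic of the 12998 genes there, with a span of 2.94 (adjusted p = 6.09e-11), and Chst5 the 111th, with a span of 3.51 (adjusted p = 5.39e-10). Restricted to P28 to 2 years, within the other set, 2 of the 8 were called, where 6.77% of all genes were. They were Chst5, with a span of 3.49 and the 4th largest F statistic of 12998 (adjusted p = 4.32e-08), and Chst2, with a span of 1.42 (adjusted p = 0.0162). Over E14.5 to P14, the call of B4galt1 was lost without replicate 3 of E14.5 (0.96, adjusted p = 0.00106) and that of Chst2 without replicate 3 of E17.5 (0.98, adjusted p = 0.0105) or replicate 2 of P7 (0.99, adjusted p = 0.015), all on size. The Chst2 call over the later ages was lost without replicate 2 of 2 months (1.20, adjusted p = 0.065) and without replicate 1 of 18 months (1.37, adjusted p = 0.0572).

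The sulfotransferases come first. Chst5 encodes the N-acetylglucosamine 6-O-sulfotransferase of the mouse cornea, the counterpart of the human gene CHST6 that is mutated in macular corneal dystrophy. Its promoter window and those of Papss2, the 2 of the 8 genes with the largest rise between E14.5 and E15.5, are shown together with that of Chst1, which was called at no comparison, to set the sequences beside their values. Each is 300 bases from RefSeq, 250 before and 50 after an annotated start, in build GRCm38.p6, written 5′ to 3′ on the gene's strand. The windows are chr8:111910150-111910449 on the minus strand for Chst5, chr19:32595465-32595764 and chr19:32619755-32620054 on the plus strand for the starts listed for Papss2, and chr2:92600867-92601166 on the plus strand for Chst1. Capitals mark matches on either strand to TATAAA (the TATA box), to CCAAT (the CCAAT box), to GGGCGG (the GC box) or to CACCC (the CACCC box).
Chst5: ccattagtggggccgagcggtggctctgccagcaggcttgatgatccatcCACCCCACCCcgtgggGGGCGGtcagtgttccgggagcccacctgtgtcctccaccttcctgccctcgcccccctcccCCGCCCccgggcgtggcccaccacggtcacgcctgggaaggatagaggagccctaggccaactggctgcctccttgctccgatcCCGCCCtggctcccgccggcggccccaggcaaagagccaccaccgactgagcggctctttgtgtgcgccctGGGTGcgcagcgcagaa
Papss2, first start: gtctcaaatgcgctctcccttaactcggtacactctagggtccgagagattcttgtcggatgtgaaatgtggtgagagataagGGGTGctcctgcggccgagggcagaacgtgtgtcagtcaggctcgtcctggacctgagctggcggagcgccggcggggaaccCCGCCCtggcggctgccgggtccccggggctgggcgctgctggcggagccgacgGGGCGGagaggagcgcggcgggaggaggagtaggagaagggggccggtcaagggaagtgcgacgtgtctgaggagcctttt
Papss2, second start: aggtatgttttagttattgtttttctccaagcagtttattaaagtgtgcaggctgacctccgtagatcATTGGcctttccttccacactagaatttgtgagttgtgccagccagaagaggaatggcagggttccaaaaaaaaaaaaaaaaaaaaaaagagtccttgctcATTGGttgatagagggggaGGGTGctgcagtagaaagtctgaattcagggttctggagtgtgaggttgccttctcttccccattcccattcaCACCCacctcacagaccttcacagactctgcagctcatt
Chst1: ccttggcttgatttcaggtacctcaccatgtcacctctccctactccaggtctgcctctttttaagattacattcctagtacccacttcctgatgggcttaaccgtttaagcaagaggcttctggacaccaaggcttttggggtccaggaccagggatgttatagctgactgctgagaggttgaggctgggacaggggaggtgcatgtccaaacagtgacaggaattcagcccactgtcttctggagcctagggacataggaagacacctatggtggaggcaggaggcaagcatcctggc

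The Chst5 window held 3 GC boxes and 3 CACCC matches in a sequence of 70.7% G and C. The first Papss2 window held 2 GC boxes and 1 CACCC match at 66.3% G and C, and the second 2 CCAAT and 2 CACCC matches at 44.3%. The Chst1 window held none of the 4 motifs. B3gnt7 was likewise called at no comparison, and its window, not shown, held 2 GC boxes and 2 CACCC matches at 62% G and C. All 8 genes matched the RefSeq table, with 10 windows in all, of which 7 held a GC box, 7 a CACCC box, 4 a CCAAT box and 0 a TATA box. Of all 32851 windows of this length, 35.7% held a GC box, 57.5% a CACCC box, 37.4% a CCAAT box and 13.6% a TATA box. In the Chst2 window, not shown, 1 GC box match overlapped a CACCC match on the other strand. A match is a description of letters and not a binding site.

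Chst5 read 250, 214 and 143 at E14.5, and 1095, 1277 and 1536 at E15.5. Every E15.5 array lay far above every E14.5 array, a rise of 2.61 log2 units (SE 0.25, limma adjusted p = 1.84e-08). It read 1058, 1207 and 823 at E17.5 and 1189, 1648 and 980 at P3, so those 3 ages overlapped. At P7 it reached its highest values, 2891, 1786 and 2733, with 1957, 2212 and 1792 at P14.

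All 3 arrays of P7 exceeded all 3 of P3, yet the difference of 0.95 (SE 0.25, limma adjusted p = 0.0156) was just short of the size asked for. Against E17.5, Chst5 at P7 was higher by 1.24 (SE 0.25, limma adjusted p = 0.00129). Without the muscle-rich arrays of E17.5, replicates 1 and 3, a single array of that age was left. The difference was then 0.99, under the size asked for, and the call was lost. The muscle sum was 3655 to 46600 at E17.5 and 2158 to 2348 at P7, and its part in the result was not tested.

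From P28 on Chst5 alternated between high and low ages. At P28 it read 604, 354 and 548, all below the P14 arrays, and fell by 1.98 log2 units (SE 0.25, limma adjusted p = 3.09e-06), a step that crosses the 2 array sets. At 2 months it read 1338, 1253 and 1354, above every P28 array, by 1.39 (SE 0.25, adjusted p = 0.000757). At 6 months it read 133 and 255, and fell by 2.73 log2 units (SE 0.27, limma adjusted p = 3.59e-06).

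At 1 year Chst5 read 540 and 728, higher than 6 months by 1.68 (SE 0.30, limma adjusted p = 0.00898). At 18 months it read 98.6 and 106, its lowest values, and fell by 2.45 log2 units from 1 year (SE 0.30, limma adjusted p = 7.6e-05). At 2 years it read 142 and 191, a difference of 0.62 from 18 months that was not called (adjusted p = 0.623). No array of 2 months or 1 year overlapped one of 6 months, 18 months or 2 years. The rise from 6 months to 1 year was lost without replicate 1 of 6 months, the array with the highest retina sum (1.25, adjusted p = 0.256), and without replicate 2 of 1 year (1.47, adjusted p = 0.169). With only the compared ages fitted that rise was also not called (1.68, limma adjusted p = 0.135). The calls at E15.5, P28, 2 months, 6 months and 18 months against the age before held under all alternatives run.

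The order of the Chst5 age means was P7, P14, 2 months, E15.5, P3, E17.5, 1 year, P28, E14.5, 6 months, 2 years and 18 months. Of the 11 pairs of neighbours in this order, only P28 and E14.5 differed past the threshold, by 1.25 (limma adjusted p = 0.00015). The age mean intensity at P7, 2470 ± 597 (SD, n = 3), was 24.2 times that at 18 months, 102 ± 4.96 (SD, n = 2).

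Keratocyte markers moved with Chst5 in some steps and not in others. Of the 10 markers, limma called 7 higher at E15.5 against E14.5, 4 lower at P28 against P14, 4 lower at 6 months against 2 months and 1 lower at 18 months against 1 year. At the rises of Chst5 from E17.5 to P7, from P28 to 2 months and from 6 months to 1 year, 0 of 10 were called higher in limma, with 0, 0 and 5 higher at an unadjusted p under 0.05. The summed intensity of the 10 markers was 7776 to 15210 at E14.5, 49760 to 58240 at E15.5, 42080 to 46580 at E17.5, 33750 to 53260 at P7, 18290 to 20520 at P28, 17660 to 23060 at 2 months, 5208 to 8997 at 6 months, 13300 to 18420 at 1 year, 5060 to 6922 at 18 months and 3369 to 11620 at 2 years. At P14 the sum was 33740 to 46070. In whole cornea, fewer cells of a type and less RNA per cell cannot be told apart. On the same array, the log2 value of Chst5 minus the mean of the 10 markers was -2.05 to -1.22 at E14.5 and -1.62 to -1.24 at E15.5, which overlapped, so the marker mean rose about as much as Chst5 there. It was -1.89 to -1.33 at E17.5 and -0.21 to -0.11 at P7, and the arrays of these ages did not overlap. The same quantity was -0.53 to 0.03 at P14, -1.54 to -0.89 at P28 and 0.04 to 0.45 at 2 months. The P28 arrays overlapped neither those of P14, in the other array set, nor those of 2 months. At both steps Chst5 and the marker mean therefore changed unequally. Across adult ages it was -1.3 to -1.0 at 6 months, -0.78 to 0.12 at 1 year, -1.87 to -1.63 at 18 months and -1.54 to -0.81 at 2 years, again lower at the ages where Chst5 was low. The part of keratocyte content in the changes of Chst5 was not tested.

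Markers of the corneal endothelium, the inner cell layer of the cornea, also moved with Chst5. Of 7 listed, 6 were measured, and limma called 3 lower at P28 against P14, 4 higher at 2 months against P28, 3 lower at 6 months against 2 months and 3 lower at 18 months against 1 year. At E15.5 against E14.5 1 was higher and 1 lower, and at 1 year against 6 months 0 were called in limma (3 higher and 1 lower at an unadjusted p under 0.05). Their summed intensity was 5234 to 8436 at P14, 4276 to 5457 at P28, 6653 to 7641 at 2 months, 3933 to 4643 at 6 months, 4165 to 5974 at 1 year and 3448 to 3855 at 18 months. Their part in the changes of Chst5 was not tested.

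Chst2, which sulfates N-acetylglucosamine in several tissues, had its highest age mean at E17.5 and its lowest at 18 months. E17.5 differed from E15.5 by only 0.05 (SE 0.27, limma adjusted p = 0.965), so no peak at E17.5 was called. Chst2 read 693, 566 and 355 at E14.5, 842, 597 and 656 at E15.5, and 635, 575 and 1001 at E17.5. After birth it read 552, 564 and 547 at P3, 420, 262 and 363 at P7, and 345, 417 and 302 at P14. It then read 146, 129 and 129 at P28, below every earlier array, and fell by 1.29 log2 units from P14 (SE 0.27, limma adjusted p = 0.000838), a step that crosses the array sets. The keratocyte sum was 33740 to 46070 at P14 and 18290 to 20520 at P28, and Chst2 minus the mean of those markers was -2.98 to -2.34 and -3.02 to -2.83, which overlapped; their part was not tested. In the adult the values were 275, 370 and 186 at 2 months and 183 and 197 at 6 months.

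Chst2 then read 248 and 158 at 1 year, 85.9 and 93.5 at 18 months and 91.1 and 206 at 2 years. The arrays of 2 months lay above those of P28 without overlap, yet the difference of 0.91 (SE 0.27, limma adjusted p = 0.0174) was under the size asked for. From 1 year to 18 months the difference was -1.02 with a limma adjusted p of 0.151, and was not called. With array weights (adjusted p = 0.0479) or only the compared ages fitted (adjusted p = 0.0308) it was called in limma. Against E17.5, P7 fell by 1.03 log2 units (SE 0.27, limma adjusted p = 0.0111), a call lost without replicate 3 of E17.5 (-0.79, adjusted p = 0.0766) and without replicate 2 of P7 (-0.85, adjusted p = 0.0841). That E17.5 array is among the muscle-rich arrays. Without both of them, which left a single array of E17.5, the difference was -0.72.

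Chst1 encodes the galactose 6-O-sulfotransferase that adds the second sulfate of the keratan sulfate disaccharide. Its intensity stayed between 157.6 and 326.5 on all 32 arrays, above the array median on 9 of them. It read 304, 327 and 252 at E17.5 and 171, 177 and 221 at P7, which did not overlap, a difference of -0.59 (SE 0.14, limma adjusted p = 0.00627) below the size asked for. From P28 to 2 years it lay between 157.6 and 242 with no test passed over those ages (adjusted p = 0.495).

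Among the chain-extending enzymes, B3gnt7, the N-acetylglucosaminyltransferase assigned to corneal keratan sulfate, had the smallest span of age means of the 8 genes. It read 294, 235 and 239 at E14.5, 281, 325 and 343 at E15.5, and 236 and 199 at 6 months, its lowest age mean. Its arrays ran from 199.4 to 343.4 over the whole life span, a ratio of 1.72, and 17 of 32 were above their array's median. No step between neighbouring ages was called.

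B3gnt2, a broader poly-N-acetyllactosamine synthase, read 524, 707 and 236 at E14.5 and 1318, 1363 and 1098 at P28, its lowest and highest age means. In between it passed 929, 1076 and 928 at P7 and 1330, 1034 and 1063 at P14. At 2 months it read 982, 680 and 758, all under the P28 arrays, a difference of -0.64 (SE 0.24, limma adjusted p = 0.055) that was not called. At no step between neighbouring ages was B3gnt2 called. Its call over E14.5 to P14 was lost without replicate 3 of E14.5 (0.99, adjusted p = 0.000307), on size.

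B4galt1, a galactosyltransferase of many glycans, read 594, 482 and 164 at E14.5 and 1055, 911 and 1074 at E15.5. The groups did not overlap, and E15.5 was higher by 1.44 (SE 0.29, limma adjusted p = 0.000467). Without replicate 3 of E14.5, the low array, the call was lost, as the value was 0.90 (limma adjusted p = 0.00339), under the size asked for. Without both lens-rich E14.5 arrays, which left a single array at that age, it was 0.75. With only the compared ages fitted the difference stayed 1.44, with a limma adjusted p of 0.0518, and was not called. B4galt1 read 919, 630 and 403 at P3, 1271, 1288 and 1311 at P28, and 836, 630 and 708 at 2 months. The 2-month arrays were all below those of P28, a difference of -0.83 (SE 0.29, limma adjusted p = 0.0416) that was not called on size. From 6 months to 2 years all its arrays lay between 979 and 1323.

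Papss2, the PAPS synthase whose loss in mice gives the short-limbed brachymorphic phenotype, read 228, 181 and 96.9 at E14.5 and 744, 1019 and 1104 at E15.5. The arrays did not overlap, and E15.5 was higher by 2.45 (SE 0.19, limma adjusted p = 8.56e-10). It read 600, 645 and 536 at P3 and 1418, 1397 and 1181 at P7, again without overlap, a rise of 1.14 (SE 0.19, limma adjusted p = 0.000661). Both rises held under all alternatives run. The sum of the 10 epithelial markers was 29900 to 42730 at E15.5, 27730 to 30850 at P3 and 45000 to 55750 at P7, so it was higher at the same ages. Papss2 minus the mean of these markers was -0.74 to -0.15 at E14.5 and -1.41 to -1.21 at E15.5, where the markers rose by more, and -1.73 to -1.38 at P3 and -1.64 to -1.27 at P7, which overlapped. Papss2 minus the mean of the 10 keratocyte markers was -2.18 to -1.72 at E14.5 and -2.17 to -1.66 at E15.5, which overlapped. It was -2.36 to -2.13 at P3 and -1.31 to -0.57 at P7, which did not. The part of either marker set in the rises of Papss2 was not tested. From P7 to 2 years its 20 arrays lay between 1001 and 1591, and the ages from P28 on spanned 0.41 (adjusted p = 0.53).

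Papss1, the other PAPS synthase, was above the array median on all 32 arrays. It read 594, 505 and 375 at E14.5 and 1080, 1453 and 1679 at E15.5, its highest age, a rise of 1.48 (SE 0.19, limma adjusted p = 1.45e-06) with no overlap. It read 708, 691 and 637 at P3. From P28 to 2 years the arrays lay between 704 and 1076, and no test over those ages passed (adjusted p = 0.649).

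Between neighbouring ages, E15.5 against E14.5 was the step with the most calls among the enzymes. There 4 of the 8 genes, Chst5, Papss2, Papss1 and B4galt1, were higher and 0 lower, where 7.35% of all genes were higher and 3.1% lower. The median difference of the 8 was 1.13, beside 0.01 over all genes. At E14.5 the arrays also carried the highest blood sum, 22820 to 33180 over 4 genes against 602.6 to 1148 at E15.5, a lens sum of 7284 to 95730 against 2763 to 2975, and the low epithelial and keratocyte sums given above, against 29900 to 42730 for the epithelium at E15.5. The part of these in the result was not tested.

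From E15.5 to E17.5, 0 of 8 genes were called in limma (1 at an unadjusted p under 0.05), where 0.569% of all genes were, and from E17.5 to P3 0 of 8 (2 at an unadjusted p under 0.05), where 1.89% were. From P3 to P7 1 gene, Papss2, was higher, where 1.35% of all genes were higher and 0.639% lower. From P7 to P14 0 of 8 were called and also 0 of all genes (0%), with 819 of all genes and 0 of the 8 at an unadjusted p under 0.05. From P14 to P28 Chst5 and Chst2 fell, 2 of 8, where 3.5% of all genes were lower and 4.15% higher.

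From P28 on, Chst5 alone accounted for the calls between neighbouring ages. It rose from P28 to 2 months, 1 of 8, where 0.615% of all genes were higher and 1.5% lower, and fell from 2 to 6 months, 1 of 8, where 1.04% were lower and 0.215% higher. It rose from 6 months to 1 year, 1 of 8, where 0.146% were higher and 0.0615% lower, and fell from 1 year to 18 months, 1 of 8, where 0.762% were lower and 0.0923% higher. From 18 months to 2 years 0 of 8 were called in limma (0 at an unadjusted p under 0.05), where 0.446% were. In all, 11 results of the 8 genes at the 11 steps were called.

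**Figure D2:**
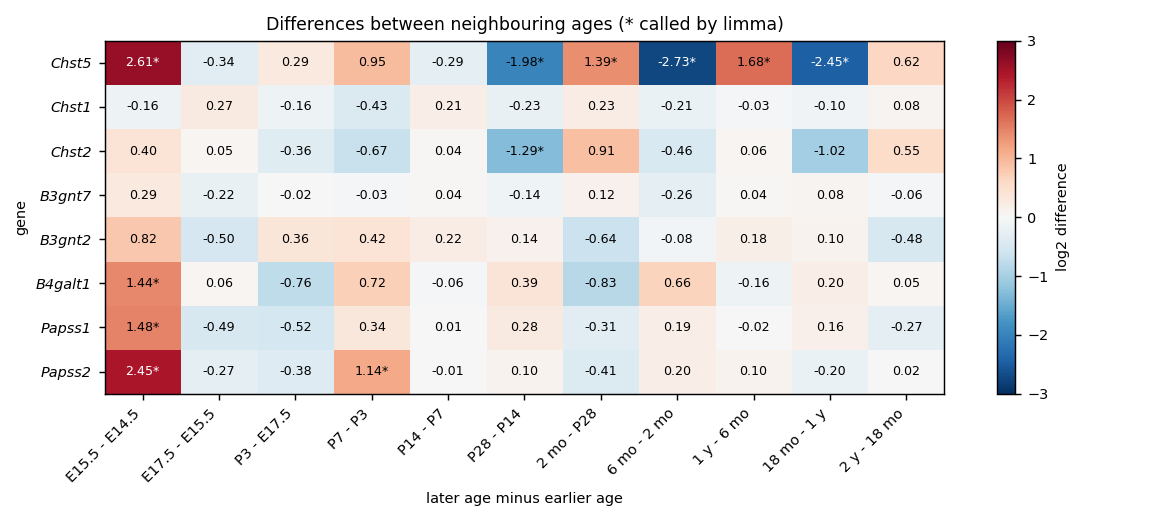
Log2 differences between neighbouring ages (columns, later minus earlier) for the 8 enzyme genes (rows), coloured from -3 in blue to 3 in red, with an asterisk on those called by limma. The first column holds 4 called rises, Chst5 holds 6 of the 11 calls, and the rows of Chst1, B3gnt7 and B3gnt2 hold none.

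Over wider intervals, E17.5 against E14.5 called 3 of 8 genes higher, where 5.87% of all genes were higher and 1.4% lower: Chst5 by 2.27, Papss2 by 2.17 and B4galt1 by 1.5. Papss1 was higher by 1 after rounding, just under the size asked for (SE 0.19, limma adjusted p = 0.00038). The B4galt1 call was lost without replicate 3 of E14.5 (0.96, limma adjusted p = 0.0034) and with only the compared ages fitted (1.5, limma adjusted p = 0.0894). Set against E15.5 rather than E14.5, E17.5 had 0 of these 3 called in limma (1 of the 8 genes at an unadjusted p under 0.05). P7 against E17.5 gave 1 higher, Chst5, where 2.82% were higher, and 1 lower, Chst2, where 2.17% were lower.

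The next comparisons, P28 against P7 and 2 months against E14.5, both cross the array sets. P28 against P7 gave 2 of 8 lower, where 4.57% of all genes were lower and 5.95% higher. Chst5 fell by 2.27 log2 units (SE 0.25, limma adjusted p = 2.87e-07) and Chst2 fell by 1.25 (SE 0.27, adjusted p = 0.000772). Papss2, in contrast, differed by 0.09 (SE 0.19, adjusted p = 0.768). Between E14.5 and 2 months 2 of 8 were higher, where 10.3% of all genes were higher and 6.02% lower: Chst5 by 2.64 and Papss2 by 2.61. Against E15.5 the same genes differed by 0.03 and 0.17 and were not called, and Chst2 was called lower instead (-1.32, adjusted p = 0.000371). Against E14.5 itself Chst2 differed by -0.92 (adjusted p = 0.0072), under the size asked for, and was called with quantile normalization (-1.06) and with array weights (-1.28). For ageing, the mean of 1 year, 18 months and 2 years was set against that of 2 and 6 months, and 1 of 8 genes was lower, where 0.554% of all genes were lower and 0.123% higher. Chst5 fell by 1.11 log2 units (SE 0.18, limma adjusted p = 0.00153). The difference was -0.89 without replicate 2 of 6 months (adjusted p = 0.0137), below the size asked for. As the values above show, each side of this contrast pools 1 age of high and 1 or 2 ages of low Chst5.

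The genes of the proteins that carry keratan sulfate were set beside the enzymes. Of 7 fixed in the list, 6 were tested (Kera, Lum, Fmod, Ogn, Omd, Prelp; Acan was not) and all 6 changed over the 12 ages, where 40.6% of all genes did. At E15.5 against E14.5 4 were higher and 1 lower, where 7.35% of all genes were higher and 3.1% lower. From E14.5 to E15.5 Kera, which encodes keratocan, rose from 1041, 233 and 69.6 to 7151, 6788 and 7526, a difference of 4.66 (SE 0.57, limma adjusted p = 9.87e-07). Lum, for lumican, was higher by 2.89, Fmod by 1.96 and Ogn by 1.81, and Omd fell by 1.4 log2 units. Prelp differed by -0.16 (adjusted p = 0.531) and was not called. Without the lens-rich arrays a single array of E14.5 was left, and the calls of Lum, Fmod, Ogn and Omd were lost. The differences there were 1.53 for Lum, 1.37 for Fmod, 1.87 for Ogn and -0.97 for Omd. With a single array at an age, a lost call can come from the smaller number of arrays as well as from the tissue left out.

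At 6 months against 2 months, where Chst5 fell, the difference was -2.79 for Lum (adjusted p = 0.0177), -2.13 for Fmod (adjusted p = 0.0396), -2.05 for Ogn (adjusted p = 0.0397), -1.04 for Prelp (adjusted p = 0.0103) and, not called, -1.65 for Kera (adjusted p = 0.149) and -0.22 for Omd (adjusted p = 0.676). The share of all genes called lower there was 1.04%. Lum read 2063, 2933 and 1978 at 2 months and 189 and 523 at 6 months. These 4 calls were all lost without replicate 1 of 6 months, with Lum at -2.10 (adjusted p = 0.232), Fmod at -2.38 (adjusted p = 0.136), Ogn at -1.25 (adjusted p = 0.38) and Prelp at -0.86 (adjusted p = 0.148), whereas Chst5 kept its call. Replicates 2 and 3 of 2 months also decided some of them: without replicate 2 the adjusted p was 0.0818 for Lum, 0.18 for Fmod, 0.131 for Ogn and 0.0533 for Prelp, and without replicate 3 it was 0.147 for Fmod and 0.0745 for Ogn, with Prelp at -0.99. The Ogn call was also lost without replicate 1 of 2 months (adjusted p = 0.064) and that of Fmod without replicate 2 of 6 months (adjusted p = 0.237). What 1A and 1B stand for in the names of arrays 2 and 3 of 2 months is not stated. With that pair averaged to 1 sample the calls of Lum (-2.76, adjusted p = 0.0658), Fmod (-1.76, adjusted p = 0.183) and Ogn (-2.10, adjusted p = 0.107) were lost, and those of Prelp and Chst5 were kept.

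Over the 12 age means, which share arrays and their tissue mix, Chst5 correlated with the 6 core protein genes at r = 0.94 for Fmod, 0.93 for Lum, 0.90 for Ogn, 0.81 for Kera, 0.48 for Prelp and -0.10 for Omd. With the 10 keratocyte markers its r ran from 0.43 for Thy1 to 0.93 for Lum, with a median of 0.82, and with the 10 epithelial markers from -0.30 for Cldn7 to 0.62 for Krt14, with a median of -0.01. For Papss2 the epithelial markers ran from 0.59 for Krt14 to 0.98 for Krt12, with a median of 0.88, and the keratocyte markers from -0.43 for Vim to 0.65 for Kera, with a median of -0.06. For Chst2 the keratocyte markers ran from 0.22 for Kera to 0.94 for Vim and the epithelial markers from -0.89 for Cldn7 to 0.08 for Krt15. The 8 enzymes did not form 1 pattern: their pairwise r ran from -0.68 for Chst1 and Papss2 to 0.90 for Chst1 with Chst2 and for B4galt1 with Papss2, and was 0.21 for Chst5 and Papss2. These are descriptions over 12 points, and no p is given.

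**Figure D3:**
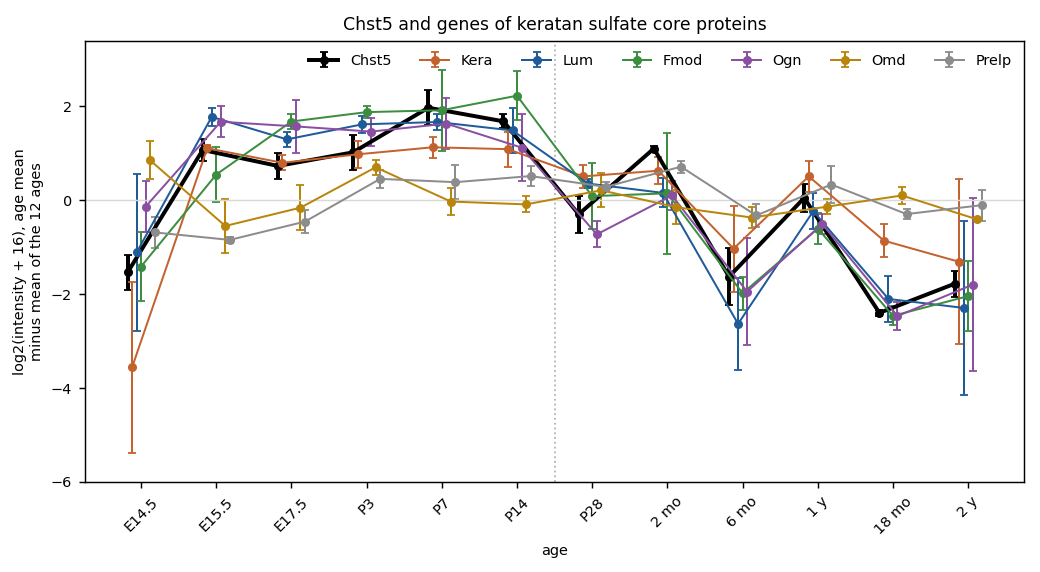
Chst5 (black) and the 6 tested genes of proteins that carry keratan sulfate, Kera, Lum, Fmod, Ogn, Omd and Prelp, as age means of log2(intensity + 16) minus each gene's mean over the 12 ages (vertical axis), with bars of 1 SD over the 2 or 3 arrays of an age. Chst5, Kera, Lum, Fmod and Ogn are lower at E14.5 than at any age from E15.5 to P14 and lower at 6 and 18 months than at 2 months and 1 year, whereas Omd is highest at E14.5 and Prelp varies less.

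By likeness of the age means among all genes tested, those closest to Chst5 were E330013P04Rik (r = 0.967), Pantr1 (0.966) and Serpinf1 (0.965). Closest to Chst2 were Klf12 (0.987), Gng8 (0.977) and Actn1 (0.975). Closest to Papss2 were Krt12 (0.981), Adh1 (0.979) and Fxyd3 (0.971), and to Papss1 Dcaf6 (0.961), Ets2 (0.955) and Erbb2 (0.949). B4galt1 was closest to Ctsb and Snapin (both 0.969) and Uso1 (0.965), B3gnt2 to Hacd4 (0.927), Laptm4a (0.907) and Card6 (0.901), Chst1 to Slc5a3 (0.977), Rasgrp3 (0.958) and Dennd5b (0.955), and B3gnt7 to Nt5m (0.966), Bmyc (0.952) and Arsa (0.95). All of these cover 12 ages, and the highest r among all genes tested is high by selection.

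In the separated layers the enzymes all differed by less than 2-fold, as did most genes above the array median on either layer array. Most, but not all, of the genes chosen as markers of a layer differed by more. With 1 array each there is no test, and the arrays also differ in age and in how the tissue was taken. Both had a higher floor (41.8 and 42.6) and median (318 and 321.5) than the whole-cornea arrays, with medians of 188.2 to 240.6. Chst2 read 582 in epithelium of P28 but 129 to 146 in whole cornea of P28. Chst1 read 473 and 433 in the layers but at most 326.5 on any whole-cornea array. Layer and whole-cornea readings are therefore not compared. Whether a raised background made the layer differences smaller was not tested. Chst5 read 728 in epithelium of P28 and 1161 in stroma of P7, a log2 difference of -0.66. Papss2 read 680 and 445, a difference of 0.59 the other way, Papss1 829 and 631 (0.39), and B4galt1 801 and 639 (0.32). B3gnt7 read 281 and 382 (-0.42), Chst2 582 and 673 (-0.21), B3gnt2 631 and 728 (-0.20) and Chst1 473 and 433 (0.12).

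None of the 8 differed by 4-fold between the layers (0 of 8), where 0.576% of 11107 genes were at least 4-fold higher in epithelium and 1.37% in stroma, nor by 2-fold (0 of 8), where 3.88% and 4.61% were. Of the 10 keratocyte markers 7 were at least 4-fold higher in stroma and 3 were not, Col5a2 at -1.51, Col5a1 at -0.83 and Pdgfra at -0.37; the lowest was Kera at -4.31, with Lum at -3.74. Of the 10 epithelial markers 6 were at least 4-fold higher in epithelium, with Krt12 at 2.78, and 4 were not, Krt5 at 1.26, Cdh1 at 0.77, Krt14 at -0.25 and Krt15 at -0.45. The other core protein genes lay nearer the enzymes, with Fmod at -0.82, Ogn at -0.83, Prelp at -0.55 and Omd at -0.07. The stroma array read 2185 for Krt12, 81500 for the lens sum and 15340 for the muscle sum, against 5152 and 3390 on the epithelium array, and the part of other tissues in these differences was not tested.

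**Figure D4:**
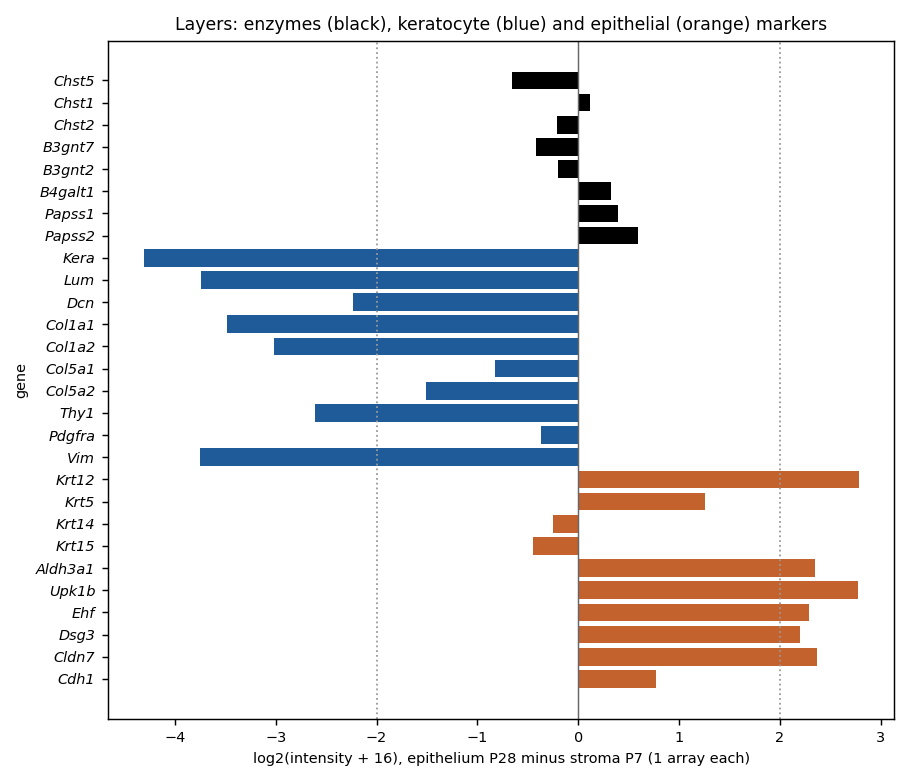
Log2(intensity + 16) in epithelium of P28 minus stroma of P7 (horizontal axis, 1 array each, no error can be given) for the 8 enzyme genes in black, 10 keratocyte markers in blue and 10 epithelial markers in orange, with dotted lines at 4-fold. The enzymes lie between -0.66 and 0.59, inside the dotted lines, as do 3 keratocyte and 4 epithelial markers, while 7 keratocyte and 6 epithelial markers lie outside them.

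Of the other genes of these pathways, over the 12 ages 10 of 17 further chain enzymes, 6 of 14 genes of sulfate and nucleotide sugar supply, 2 of 3 of keratan sulfate breakdown, 10 of 17 of chondroitin and dermatan sulfate and 8 of 14 of heparan sulfate were called, against the 40.6% of all genes. At E15.5 against E14.5 the further chain enzymes gave 2 higher and 1 lower. The lower one was B3gnt5, which extends glycolipids, from 572, 938 and 933 to 106, 87.3 and 47.6; the difference was -3.13 (SE 0.23, limma adjusted p = 3.02e-10). B3gnt8, a poly-N-acetyllactosamine enzyme, rose from 211, 129 and 193 at E17.5 to 557, 678 and 661 at P7, by 1.76 (SE 0.19, limma adjusted p = 5.62e-07). The supply genes gave 0 of 14 at E15.5 in limma (5 at an unadjusted p under 0.05), and at 2 months against E14.5 1 higher and 1 lower, with Slc35a3, the Golgi carrier of UDP-N-acetylglucosamine, higher by 1.31 (SE 0.24, limma adjusted p = 8.39e-05; 0.46 against E15.5, not called).

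At P28 against P14, a step that crosses the array sets, the chondroitin and dermatan sulfate list gave 1 higher and 1 lower of 17 and the heparan sulfate list 0 higher and 3 lower of 14, where 4.15% of all genes were higher and 3.5% lower. Csgalnact1, which starts the chondroitin sulfate chain, rose from 87, 88.5 and 86.8 to 346, 408 and 361, by 1.90 (SE 0.32, limma adjusted p = 0.000107). Hs6st2, a heparan sulfate 6-O-sulfotransferase, fell from 371, 364 and 192 to 23.1, 25 and 30.6, a difference of -2.89 (SE 0.36, limma adjusted p = 3.13e-06). At 6 months against 2 months, where Chst5 fell, the chondroitin and dermatan sulfate list gave 1 of 17 lower, Chsy3, with -1.78 (SE 0.30, limma adjusted p = 0.00218), a call lost without replicate 1 of 6 months (-1.30, adjusted p = 0.0838), and the heparan sulfate list 0 of 14 in limma (5 at an unadjusted p under 0.05).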

How the data were processed

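RNA of 34 mouse cornea samples was measured on Affymetrix gene arrays. The deposited intensity of each of 35557 probe sets, on a linear scale, was made by the authors; the submitters' processing notes name PLIER and Expression Console 1.1, and the order of steps is not given in the sources used here. Values were used as deposited, with 2 missing. Of the probe sets, 21789 had 1 gene symbol, 1621 several and 12147 none in the platform annotation given. A probe set was kept if above its array's median (over probe sets of 1 symbol) on 2 or more of the 32 arrays of whole cornea, and each gene was represented by its probe set of highest mean.

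Log2(intensity + 16) was fitted with 1 mean per age in limma 3.58.1 (R 4.3.3; lmFit, eBayes, 20 residual and 4.1 prior degrees of freedom), two-sided, with Benjamini-Hochberg adjustment over 12998 genes. The layer arrays entered no fit. The fit was tested on simulated data. The 8 members, the gene lists and the tests were chosen with earlier results of these data known. Named are the 8 members, the core protein genes, the 3 genes most like each member, and of each other list at most the 4 called genes with the largest difference in a comparison. Lists were described by counts, with no set test. Other offsets, filters, normalizations, weights and left-out arrays were tried.

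Replicate numbers were checked for pairing: same-numbered arrays of different ages had a median correlation of deviations of -0.01 (-0.43 to 0.40), and other arrays 0.01. It was over 0.1 in 28 of 160 same-numbered pairs and in 71 of 308 other pairs. No general pairing by number was seen, but such medians cannot exclude pairing at some ages. Arrays of 1 age correlated at 0.879 to 0.985, and none was taken as a duplicate; the 2-month arrays labelled 1A and 1B were counted separately, and averaged as an alternative.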

Additional observations from a re-analysis of the deposited data

How the results depend on the processing

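Over 52 alternatives, 160 results of the 8 enzymes gave 7418 values labelled the same, 37 calls lost, 39 gained and 2 reversed in sign. The values labelled the same include 99 sign changes of differences that were not called. They also include the layer differences, which have no call and were compared by size. The 2 reversed, Chst5 and Papss2 at E17.5, came from replacing E14.5 by E15.5, which is another contrast, and were not called there. With the replicate block every count of called enzymes was as reported, such as 6 over the 12 ages and 11 at the steps; among the other genes Fmod at 6 months against 2 months (-2.16, adjusted p = 0.055) and Hs6st2 over P28 to 2 years (1.55, adjusted p = 0.0547) lost their calls under it.

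P7 against E17.5 (2 called) gave 1 with offset 64, array weights, the compared ages alone or adjusted p under 0.01, 0 without the muscle-rich arrays and 5 with no size threshold. Ageing (1) gave 0 with offset 64 or without the lens-rich arrays. P28 to 2 years (2) gave 1 with quantile normalization, without the lens-rich arrays or at adjusted p under 0.01. The 2-month comparison with E14.5 (2) gave 6 with no size threshold and 1 when E15.5 replaced E14.5, and E17.5 against E14.5 (3) gave 0 with that replacement. Leaving out 1 array gave 1 to 2, 0 to 1, 1 to 2, 2 to 4 and 2 to 4 for these, in that order, 6 to 6 over the 12 ages, 4 to 6 over E14.5 to P14, 2 to 2 for P28 against P7 and 10 to 12 for the steps; where that left 1 array at an age, it was assumed to vary like the others.

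When E15.5 replaced E14.5, the following signs reversed. Of the reversed values, only those of Lum (limma adjusted p = 0.0243) and Ogn (limma adjusted p = 0.0123) at 2 months were called. E17.5 became -0.34 for Chst5, -0.27 for Papss2, -0.30 for Kera, -0.48 for Lum, -0.10 for Ogn, 0.40 for Omd, 0.26 for B3gnt5, -0.72 for Chsy3 and -0.11 for Sulf1, and 2 months -0.48 for Kera, -1.62 for Lum, -0.40 for Fmod, -1.57 for Ogn and -0.52 for Chsy3. Of 231 results of other genes, 327 values lost their call and 58 gained one, against 10914 the same. The layer count was 0 under all 4 alternatives tried. Signal near the array median limits Chst1 and B3gnt7. Low signal also limits the lowest ages of Chst5, above the array median on 24 of 32 arrays, and of Chst2, above it on 20. At 18 months both read under 188.2, the lowest median over all probe sets of any whole-cornea array.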
